A study of Rattus norvegicus with 4 samples.

Results

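The lysosomal proton pump and the proteins of the lysosomal membrane were examined in NR8383 cells, a rat alveolar macrophage line first obtained by washing out a lung. Members were the non-control probes whose deposited gene name begins with Atp6v0, Atp6v1 or Atp6ap, together with 16 named genes of the lysosomal membrane and its control. This gave 52 probes of 45598 on the array, for 41 genes, against 18826 genes with a symbol in all. Of the 41 genes, 25 belong to the pump and 16 do not. The series holds 1 group of 4 replicates, the submerged control, taken after 20 passages and grown in medium with 15% serum and 2 mM glutamine, and no second condition was analysed here. Submerged culture is given as 4 h in the design and as 48 h from seeding in the treatment notes, so no duration is attached to the values. The series calls the replicates biological. No label names separate cultures, and the spread between them may therefore be partly technical.

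The vacuolar ATPase pumps protons into lysosomes and so keeps their hydrolases active. Its cytosolic V1 part binds and splits ATP, and its V0 part, which sits in the membrane, carries the protons. Several subunits are encoded by more than 1 gene, and the copies differ in the tissues that use them. Macrophages rely on this acidification to digest what they engulf. The transcription factors TFEB and TFE3 are known to switch on many lysosomal genes, the pump among them, through a DNA element called the CLEAR motif.

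Cy3-labelled RNA was read on Agilent rat arrays, and the deposited value of a spot is its background-corrected processed signal in fluorescence units. The 75th percentile of that signal over non-control spots was 1317, 1489, 1179 and 958.2 on replicates 1 to 4. A level is the log2 processed signal minus that percentile, given as mean ± SD over the 4 arrays. Probes differ in how brightly they hybridise, so levels of different genes or probes are not set against each other. Detection on an array required that over 0.5 of a probe's spots free of outlier flags stood well above background by the scanner software's call. A gene counted as detected where some probe of it met this on all 4 arrays. The lowest signal well above background lay between 16.6 and 20.3 units, and the median of the 308 negative control spots between 3.89 and 4.85. The brightest negative control reached 42.7, 38.9, 37.8 and 222.5 units, and on replicate 4 it exceeded the detected genes Atp6v0e2 (60.5), Atp6ap1l (47.0) and Ctns (34.7) and the dimmer Tfe3 probe (67.9). On that array it also exceeded dim detected genes of the other lists, among them Siglec5, Mtor, Tpcn1, Dmxl1, Vma21, Prm1 and Mlana. Among macrophage markers, Cd68 at 4.74 ± 0.05, Csf1r at -0.02 ± 0.10, Spi1 at -0.43 ± 0.12 and Pparg at 3.86 ± 0.19, were detected on every array, as were Itgam and Siglec5, so that all 6 markers listed were found.

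Of the 41 genes, 35 (85.4%) were detected on all 4 arrays, against 54.9% of all genes with a symbol. Of the 52 probes, 42 were detected on all 4 arrays, against 42.5% of all probes. The 6 genes that were not detected on all arrays all belong to the pump, 5 to V1 and 1 to V0. Of V1 genes 8 of 13 were detected, of V0 genes 8 of 9, and the 3 accessory genes were detected too. All 7 membrane proteins, all 7 transporters and channels and both transcription factors were detected. The plot of levels by gene shows the 6 genes not detected on all arrays at the dim end. They mostly form wider groups of 4 arrays than the 35 detected genes. An exception is Clcn7, which was detected and had an SD of 0.34, against 0.33 for Atp6v1g3.

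**Figure D1:**
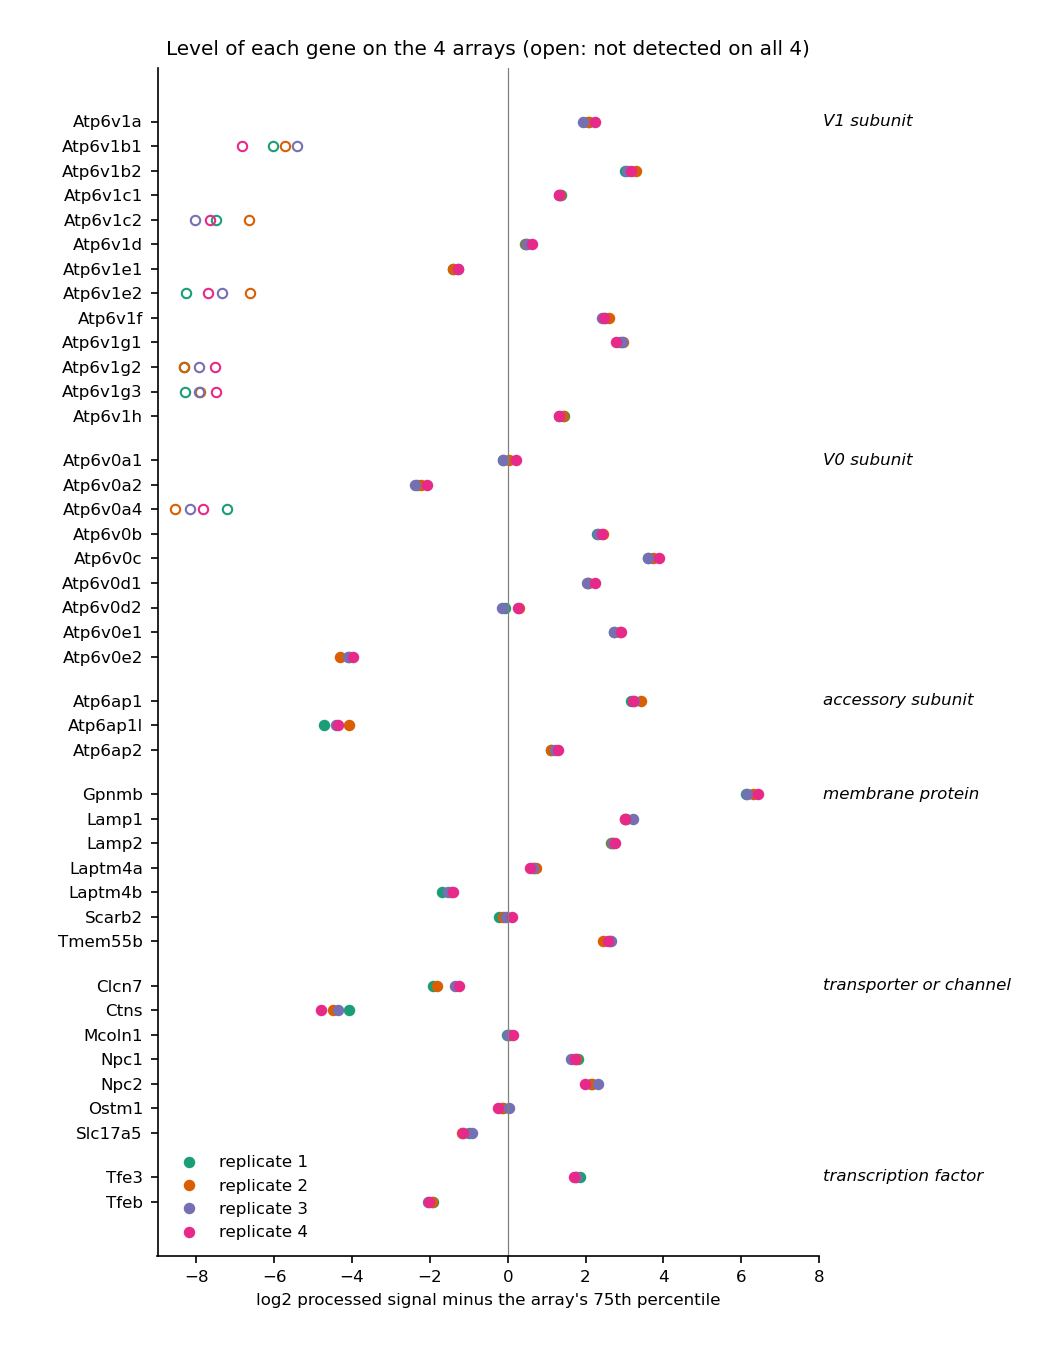
Level of each of the 41 genes on the 4 arrays (log2 scale, relative to that array's 75th percentile), grouped by role, with 1 point per replicate. Filled points are the 35 genes detected on all 4 arrays and open points the 6 that were not. Positions of different genes are not comparable.

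V1 subunits A and B form the ring that binds ATP. Atp6v1a, which encodes the catalytic subunit A, gave 5576, 6217, 4470 and 4551 units on replicates 1 to 4, at a level of 2.08 ± 0.13. Its other probe was also detected, at 305, 341, 305 and 240.0 units. Subunit B has a widely used form, Atp6v1b2, and a form known in mouse and human mainly from kidney and inner ear, Atp6v1b1. Atp6v1b2 gave 10699, 14719, 9828 and 8557 units (3.14 ± 0.13). Atp6v1b1 gave 20.2, 28.0, 27.7 and 8.49 units, and was detected on replicates 1 to 3 but not on replicate 4. These signals straddle the lowest that was well above background, and no level is given for this gene.

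The remaining V1 subunits form the rotor, the stalks that hold the ring and the parts that join V1 to V0. Atp6v1d and Atp6v1f, which encode the rotor subunits D and F, lay at 0.51 ± 0.08 and 2.50 ± 0.08. Atp6v1h, a regulatory subunit that bridges V1 and V0, lay at 1.38 ± 0.07 on 1 of its probes, and its other probe was detected as well. For subunit C, which holds the parts together, Atp6v1c1 gave 3410, 3804, 2939 and 2402 units. After scaling to the 75th percentile these 4 values lay within a 1.04-fold range (1.34 ± 0.03), the smallest SD among the 35 genes. Its paralogue Atp6v1c2 gave 7.30, 14.9, 4.48 and 4.76 units and was detected on no array.

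Subunits E and G form the stator stalks. Atp6v1e1 gave 500.3, 564, 491 and 397 units (-1.33 ± 0.08), while neither of the 2 probes of Atp6v1e2, known in mouse and human as a testis form, was detected on any array. The brighter probe of Atp6v1e2 gave 4.29, 15.2, 7.30 and 4.60 units. Atp6v1g1 gave 9656, 11613, 9039 and 6548 units (2.89 ± 0.08). Atp6v1g2, known as a brain form, gave 4.11, 4.68, 4.85 and 5.24 units. Atp6v1g3, known as a kidney form, gave 4.19, 6.17, 4.86 and 5.33 units on the brighter of its 2 probes. Both stayed near the negative controls on all 4 arrays. For each of subunits B, C, E and G, exactly 1 gene was detected on all arrays.

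V0 showed another picture, with more than 1 gene detected for subunits a, d and e. Subunit a anchors the stator and steers the pump to its membrane. Atp6v0a1 gave 1205, 1524, 1084 and 1106 units (0.00 ± 0.16), and Atp6v0a2 gave 260.3, 319, 225 and 228 units (-2.26 ± 0.14). Each rests on 1 of 2 probes. The other probe of Atp6v0a1, designed to a predicted transcript variant, gave 10.6, 8.41, 14.1 and 7.39 units and was detected on no array. The other probe of Atp6v0a2 gave 24.4, 15.7, 16.1 and 20.2 units and was detected on 1 array. Atp6v0a4, known from kidney in mouse and human, gave 8.80, 3.97, 4.09 and 4.22 units and was detected on none. Tcirg1, which is not a member by name but encodes the a3 form found in osteoclasts and macrophages, was detected on all arrays with both of its probes, at 3.16, 3.25, 3.08 and 3.57.

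Subunits c and its relative encoded by Atp6v0b form the proton-carrying ring. Atp6v0c gave 15894, 19857, 14447 and 14110 units (3.71 ± 0.13), and its other probe was detected too. Atp6v0b gave 6429, 8109, 5880 and 5140 units (2.37 ± 0.08). Subunit d couples the ring to the rotor. Atp6v0d1, the widely used form, gave 5503, 6173, 4862 and 4560 units, and Atp6v0d2, known in mouse from osteoclasts and macrophages, gave 1266, 1820, 1057 and 1159 units. Both were detected on every array, far above the background signal. Atp6v0e1 lay at 2.81 ± 0.10 and Atp6v0e2 at -4.12 ± 0.13. The dim signals of Atp6v0e2 were 77.4, 75.4, 69.1 and 60.5 units.

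**Figure D2:**
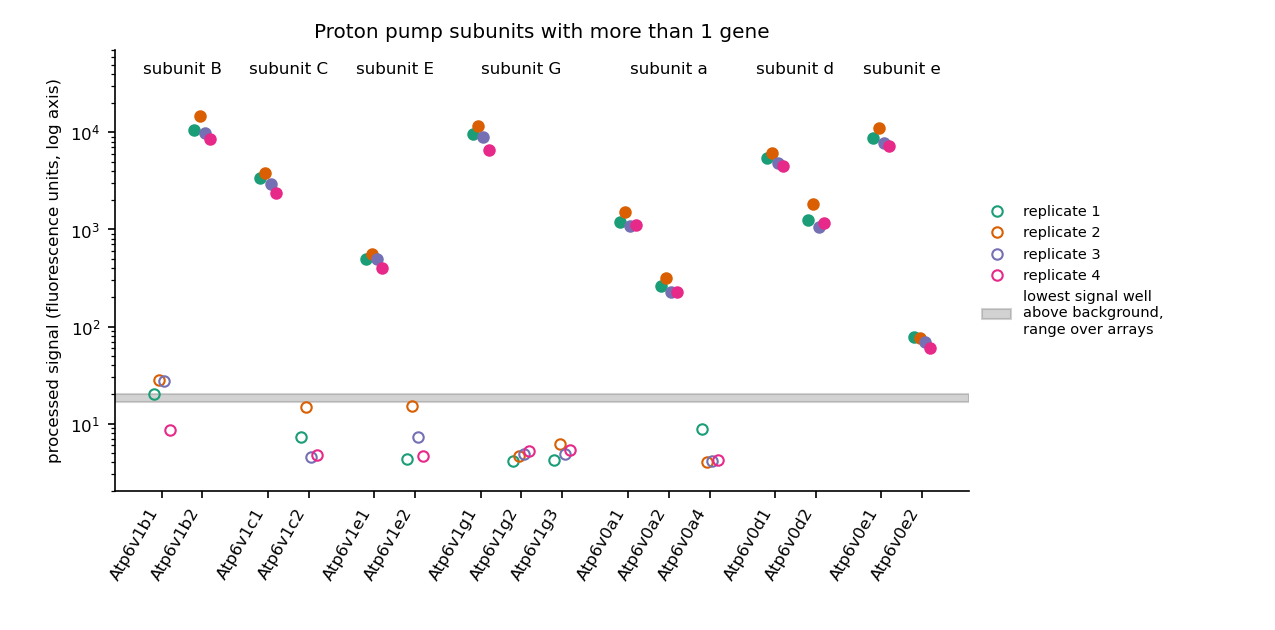
Processed signal (fluorescence units, log axis) of pump subunits with more than 1 gene, 4 replicates each, with the range over arrays of the lowest signal well above background as a grey band. Filled points are genes detected on all 4 arrays. Atp6v1b1 straddles the band, Atp6v1c2, Atp6v1e2, Atp6v1g2, Atp6v1g3 and Atp6v0a4 lie below it, and the other genes lie above it on every array. Brightness of different genes is not comparable.

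The paralogue calls depend on which stretch each probe reads. The probes shown here come from a chosen list of Atp6v0d1, Atp6v0d2, Atp6v1e1, Atp6v1e2 and Atp6v1c2. Atp6v1c1 was not on that list and its probe was not examined in this way. The other probe of Atp6v1e2, designed to a predicted transcript, was left out. A probe was shown only if it had a reading frame without a stop codon before its last codon. This was a condition for display and does not show that a probe reads coding sequence. The probes are written 5′ to 3′ in lower case throughout, with rn4 positions as deposited.
Atp6v0d1 (detected, chr19:35342854-35343006, minus strand): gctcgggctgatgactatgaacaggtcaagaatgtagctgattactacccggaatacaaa
Atp6v0d2 (detected, chr5:34476269-34476328, minus strand): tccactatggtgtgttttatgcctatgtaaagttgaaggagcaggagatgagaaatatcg
Atp6v1e1 (detected, chr4:157217203-157217262, minus strand): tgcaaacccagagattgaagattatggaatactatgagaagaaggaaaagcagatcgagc
Atp6v1e2 (not detected, chr6:10391908-10391967, minus strand): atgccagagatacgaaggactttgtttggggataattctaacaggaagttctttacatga
Atp6v1c2 (not detected, chr6_random:633328-633387, minus strand): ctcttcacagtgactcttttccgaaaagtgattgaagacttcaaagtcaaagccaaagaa
Among all 1326 pairs of member probes, the longest run shared by probes of different genes was 13 bases. Whether a probe also binds other transcripts was not tested, since no transcript sequences were used here. Of the 52 probes, 10 cover more than 60 bases of rn4, as the Atp6v0d1 probe does with 153, which places a gap in the genome between parts of the probe. No exon or UTR annotation was used.

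Among the accessory genes, Atp6ap1, which encodes a glycoprotein that helps to assemble and guide the pump, lay at 3.26 ± 0.11. Atp6ap2, the prorenin receptor, lay at 1.18 ± 0.08, and its 2 probes share 57 bases. Over the 4 arrays their deviations from their own means were -0.06, -0.07, 0.02 and 0.11 for the brighter probe and -0.15, -0.04, 0.07 and 0.12 for the other. The overlapping probes therefore differed by up to 0.09 on the same array. Atp6ap1l gave only 49.9, 88.3, 55.9 and 47.0 units (-4.39 ± 0.26).

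All 11 genes listed for pump assembly and regulation were detected on all arrays. They include Tcirg1, Rnasek at 3.74 ± 0.10, Dmxl1 at -4.85 ± 0.22 and Dmxl2 at -1.33 ± 0.15, of which the Dmxl genes encode parts of the complex that rejoins V1 to V0. Dmxl1, Vma21 (-5.14 ± 0.33) and Ccdc115 (-3.04 ± 0.14) were dim, and on replicate 4 their signals lay under the brightest negative control.

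Every structural membrane protein was detected. Lamp1 and Lamp2 encode the heavily glycosylated proteins that line the lysosomal membrane, and Lamp2 also serves as the receptor of chaperone-mediated autophagy. Lamp1 gave 10857, 11931, 11014 and 7747 units (3.07 ± 0.10). Lamp2 gave 8359, 9473, 7651 and 6439 units (2.70 ± 0.04), and its other probe, which covers 6609 bases of rn4, had an SD of 0.02. Scarb2, which carries the enzyme glucocerebrosidase to lysosomes, lay at -0.07 ± 0.13. Tmem55b, which recruits motor adaptors that move lysosomes, lay at 2.58 ± 0.09 on 1 probe, and its other probe was detected too. The lysosomal transmembrane proteins Laptm4a and Laptm4b lay at 0.66 ± 0.06 and -1.52 ± 0.12.

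Gpnmb, a glycoprotein that macrophages make under lysosomal stress and lipid load, is the only member printed on 10 spots. Its mean signal was 92114, 117608, 83391 and 83027 units, and no spot on any array was saturated. The 10 spots of an array had a log2 SD between 0.040 and 0.055, which gives their mean a standard error of 0.013 to 0.017. The SD between arrays was 0.15 (6.25 ± 0.15). These are different quantities, since the SD between arrays also holds the error of scaling each array.

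The transporters and channels were all detected. Mcoln1, the channel that releases lysosomal calcium, gave 1292, 1554, 1183 and 1050.2 units (0.04 ± 0.07). Npc1 and Npc2, which hand cholesterol out of the lysosome, lay at 1.73 ± 0.08 and 2.15 ± 0.13. Slc17a5, which exports sialic acid, lay at -1.06 ± 0.13. Ctns, which exports cystine, gave 77.9, 66.3, 57.1 and 34.7 units and spanned a 1.63-fold range in level (-4.43 ± 0.29), the widest of the 35 genes on this scale, with replicate 4 lowest. With normexp it lay at -3.19, -3.45, -3.26 and -3.22 (SD 0.11), with replicate 2 lowest, and Clcn7 then had the largest SD (0.31). This is a dim probe, and among all genes with levels between -5 and -4 the median SD was 0.23.

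Clcn7 encodes the chloride and proton exchanger of lysosomes, and Ostm1 its partner subunit. The levels of Clcn7 on replicates 1 to 4 were -1.92, -1.81, -1.35 and -1.24. They spanned 1.60-fold, with the largest SD among the 35 genes (0.34). Replicates 3 and 4 were high and replicates 1 and 2 low, with no overlap. Ostm1 lay at -0.13, -0.16, 0.02 and -0.25, without that split. The bright spike-in probes, which carry RNA added in labelling and none of the cells' own, lay 1.86, 1.87, 2.46 and 2.85 above the 75th percentile, also with replicates 3 and 4 high. The split stayed with normexp, at -1.64, -1.54, -1.10 and -1.02, with quantile normalization, at -1.91, -1.81, -1.33 and -1.27, and with the median of detected probes as scale, at -0.34, -0.23, 0.25 and 0.33. Scaled on the spike-in probes, Clcn7 lay at -3.78, -3.68, -3.81 and -4.09, while the median deviations of all detected genes were 0.39, 0.40, -0.21 and -0.58. Spike-in scaling subtracts 1 value per array, so it cannot change the gap between Clcn7 and other genes on an array. The part of the scaling in the split of Clcn7 was not tested beyond these values.

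Both transcription factors were detected. Tfeb gave 348, 384, 287 and 238 units and lay at -1.92, -1.96, -2.04 and -2.01, a 1.09-fold range. The brighter probe of Tfe3 gave 4807, 5019, 4002 and 3127 units (1.77 ± 0.07). The other Tfe3 probe gave 70.1, 63.0, 63.0 and 67.9 units and had an SD of 0.30. On no array did it differ from the brighter probe by more than 0.46 in deviation from its own mean. Of the 19 genes listed for nutrient sensing and TFEB control, 18 were matched on the array and all 18 were detected on all arrays. They include the sister factors Mitf (3.19 ± 0.35) and Tfec (0.73 ± 0.16), the kinase Mtor (-3.03 ± 0.11) and Rptor (1.95 ± 0.11), whose product lets mTOR bind its substrates. Mitf was the most variable of these, at 3.58, 3.33, 2.75 and 3.08, and did not pass the variance test described next (adjusted p = 0.23 in limma).

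With 1 group, the test across all probes asks which vary more between replicates than probes of like signal. Each probe's residual variance was compared in limma with that of probes of like mean signal, through a robust trended prior, with Benjamini-Hochberg adjustment over the 19400 probes detected on all arrays. None of the 42 member probes passed at 0.05, against 0.17% of all probes tested, and the smallest adjusted p of a member was 0.54. Without adjustment 3 of the 42 had a p under 0.05, against 6.5% of all probes tested. These were the probe of Clcn7 (0.018), the dimmer probe of Atp6v0c (0.031) and the probe of Atp6v0d2 (0.044), all by limma. Missing the threshold does not show that the members did not vary.

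The median SD over the 35 genes was 0.10, and over all 10333 detected genes 0.11. The median range of a gene over the 4 arrays was 1.17-fold among members and 1.19-fold among all genes. An SD of 0.2 or more was seen in 4 members, namely Clcn7, Ctns, Atp6ap1l and Atp6v0d2, which is 11.4% of the 35, against 18.5% of all detected genes. At the other end, 16 members (45.7%) had an SD under 0.1, against 43.1% of all. Spread depends on signal, and the plot of SD against level sets each member beside genes of like level. There 13 of the 35 lay under the median of their level class and 9 above its upper quartile.

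**Figure D3:**
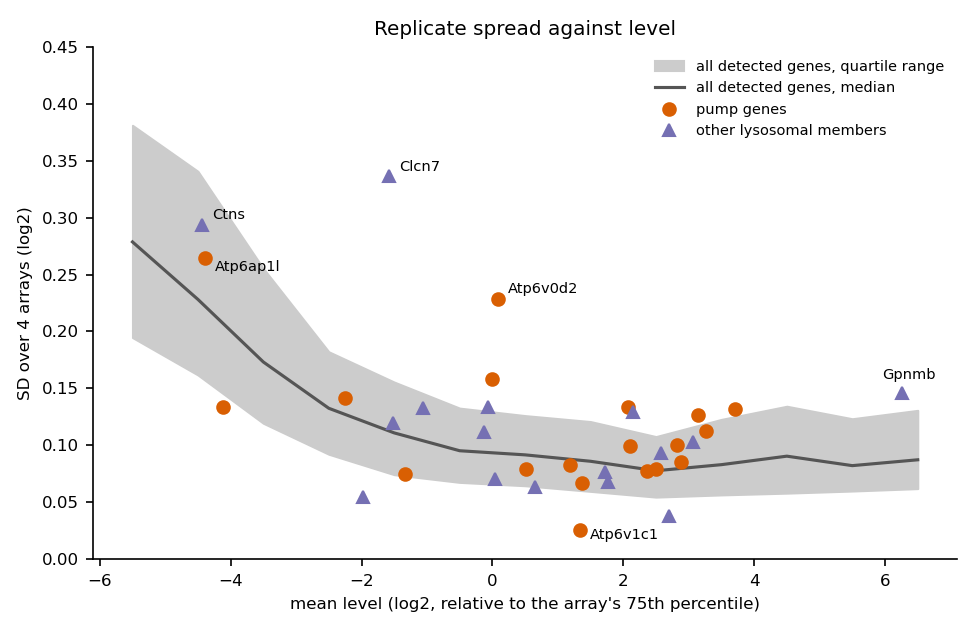
SD over 4 arrays (log2) against mean level (log2, relative to the array's 75th percentile) for the 35 detected genes, with pump genes as circles and the others as triangles. The line and band are the median and quartile range of all 10333 detected genes in classes 1 log2 unit wide. Clcn7 (0.34) and Atp6v0d2 (0.23) lie above the band, Ctns (0.29) and Atp6ap1l (0.26) lie within it, and Atp6v1c1 (0.03) lies below it.

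The 8 detected V0 genes lay high together on replicate 4 and mostly low on replicates 1 and 3. On replicate 4 all 8 V0 genes were above their own mean and 6 had their highest value there, with a median deviation of 0.16. Of all 35 members 42.9% were highest on replicate 4, and of all detected genes 32.1%. On that array 4 of 8 V1 genes were above their mean (median 0.00), and so were 51.9% of all detected genes (median 0.01). On replicates 1 and 3 only 1 V0 gene each was above its mean, with medians of -0.09 and -0.09, against 48.3% and 47.1% of all detected genes. V1 had 4 of 8 genes above their mean on replicate 1 and 2 of 8 on replicate 3 (median -0.04). On replicate 2 the groups were alike, with 6 V0 genes and 5 V1 genes above their means and medians of 0.03 and 0.03. Tcirg1 was also highest on replicate 4, where 7 of the 11 assembly genes were above their own means. The difference between V0 and V1 was not tested. It was seen after the values were known.

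The V0 pattern kept its direction with normexp background correction, quantile normalization and the median of detected probes as scale, with all 8 genes above their mean on replicate 4 each time and median deviations of 0.17, 0.16 and 0.15. Scaled on the spike-in probes it turned round. None of the 8 was then above its mean on replicate 4, where the V0 median was -0.43, the V1 median -0.59 and that of all genes -0.58. Spike-in scaling and the median of detected probes each subtract 1 value per array. Neither can therefore change the gap between V0 and other genes on an array. With normexp the V0 median on replicate 4 was 0.17, against -0.01 for V1 and 0.04 for all genes. With quantile normalization it was 0.16, against 0.01 for V1 and -0.01 for all genes. Of the osteoclast markers listed, 4 of 7 were detected on all arrays, and Ctsk, Ocstamp and Dcstamp were not. The 4 detected had median deviations of 0.03, 0.14, -0.12 and -0.01 on replicates 1 to 4, and 1 of them was above its mean on replicate 4. That 1 was Acp5, at -1.37, -0.72, -1.16 and -0.50, while Nfatc1 lay at 2.23, 1.96, 2.18 and 2.12. Atp6v0d2 lay at -0.06, 0.29, -0.16 and 0.27. The 6 macrophage markers had median deviations of 0.04, 0.06, -0.05 and 0.05, with 4 above their mean on replicate 4. They did not move together, since Itgam was highest there, at -1.42, -0.56, -1.59 and -0.03, and Pparg lowest there, at 4.04, 3.85, 3.95 and 3.61. The part of these markers in the V0 values was not tested.

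**Figure D4:**
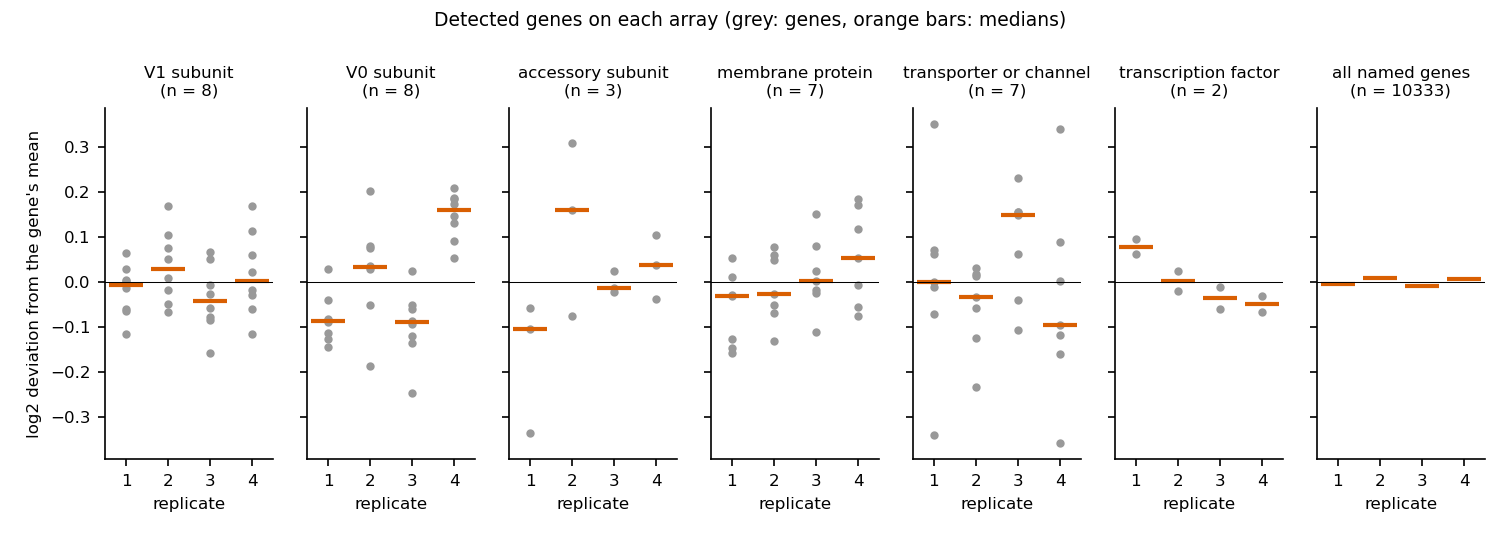
Log2 deviation of each detected gene from its own mean over the 4 arrays, by role, with 1 grey point per gene and array and orange bars for medians. The last panel gives the median of all 10333 detected genes. All 8 V0 genes lie above 0 on replicate 4 (median 0.16), while the V1 median there is 0.00; with spike-in scaling none of the 8 does.

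The 3 accessory genes had their medians at -0.10, 0.16, -0.01 and 0.04, the membrane proteins at -0.03, -0.03, 0.00 and 0.05, and the transporters and channels at 0.00, -0.03, 0.15 and -0.10. Tfeb and Tfe3 were both highest on replicate 1. Over all 35 genes the medians were -0.04, 0.02, -0.02 and 0.05, against -0.00, 0.01, -0.01 and 0.01 over all detected genes. Where 2 probes of a gene were detected, which held for 7 genes, the probes shared their highest array in 2 genes and their lowest in 2. Atp6v0c was the gene whose probes shared both, with deviations on replicate 4 of 0.17 and 0.32.

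Promoters of the members were examined for the element that TFEB and TFE3 read. RefSeq promoters of GRCr8, from 250 bases before to 50 after the transcription start, were matched for 35 of the 41 genes. The 6 without an entry, Atp6v1b2, Atp6v1c1, Atp6v1h, Atp6v0d2, Atp6v0e2 and Laptm4b, were all detected on the arrays. The matched promoters were searched on both strands for the E-box hexamer CACGTG, for TCACGTG and for the 8-letter TCACGTGA, each longer form containing the shorter ones. The related hexamer CATGTG was searched too. A 10-letter form adds a G before and a C after the 8 letters. It is the known consensus of the CLEAR motif named above, and was searched in the same way. TCACGTGA, which matches its own reverse complement, stood in 5 of the 35 promoters (14.3%), against 0.777% of all 33469 promoters and 1.70% of the 9432 promoters of genes detected on all arrays. CACGTG stood in 6 (17.1%), against 6.42% of all promoters and 9.19% of those of detected genes, and each of these 6 also held TCACGTG (against 3.20% and 5.48%). The 10-letter form was in 0 of 35, against 0.233% of all promoters and 0.583% of those of detected genes. No matched member promoter therefore held the full consensus in this window, and the matches above are to its shorter core. CATGTG was in 7 (20.0%), against 14.0% of all promoters and 8.57% of those of detected genes. Median GC content was 58.3% for the members and 60.3% for detected genes, against 51.7% for all promoters. CACGTG stood in 6 of the 29 promoters of detected members (20.7%) and in 0 of the 6 of members not detected. Among all genes not detected on all arrays the share was 5.79%, so 0 of only 6 promoters does not show a link with detection. The members were chosen as lysosomal genes, and these counts are a description of letters in a window, with no evidence of binding in these cells.

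The windows around TCACGTGA are shown because they carry the shared feature, 5′ to 3′ on the strand of the gene, with the 8 letters in capitals.
Atp6v0d1 (chr19:50357283-50357312, minus strand): ccccattgtggTCACGTGAgatgcagtgcg
Atp6v0e1 (chr10:17007115-17007144, minus strand): tcgcgcgccggTCACGTGAgcctctgttga
Lamp1 (chr16:83075111-83075140, minus strand): agaccctcggcTCACGTGAccggcgggcgc
Lamp1 (chr16:83075084-83075113, minus strand): cgcggcactgtTCACGTGAcaggcgctgcc
Mcoln1 (chr12:6358250-6358279, plus strand): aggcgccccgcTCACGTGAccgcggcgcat
Tmem55b (chr15:26624258-26624287, minus strand): gggtcagtctgTCACGTGAgcggggcggca
Tmem55b is listed in RefSeq as Pip4p1. The hexamer within the window began 52 bases before the start in Atp6v0d1, 65 and 38 before it in Lamp1 and 29 before it in Tmem55b, and at base 25 of the transcript in Atp6v0e1 and base 5 in Mcoln1. Clcn7 held CACGTG 34 bases before its start without the 8-letter form.

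Lamp1 held the most matches, 5 CACGTG hexamers, all of them upstream of the start. The stretch from 200 to 21 bases before the start is shown with these hexamers in capitals.
Lamp1 promoter (GRCr8, chr16:83075084-83075263, minus strand): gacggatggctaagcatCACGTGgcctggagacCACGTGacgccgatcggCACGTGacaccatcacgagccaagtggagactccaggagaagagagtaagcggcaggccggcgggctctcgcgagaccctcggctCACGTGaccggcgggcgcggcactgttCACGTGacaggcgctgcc
Of the 6 genes with a match, Lamp1, Mcoln1, Tmem55b, Atp6v0d1 and Atp6v0e1 had SDs between arrays of 0.10, 0.07, 0.09, 0.10 and 0.10, and Clcn7 of 0.34. They did not share a highest array, since Lamp1 and Tmem55b were highest on replicate 3 and the other 4 on replicate 4.

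**Figure D5:**
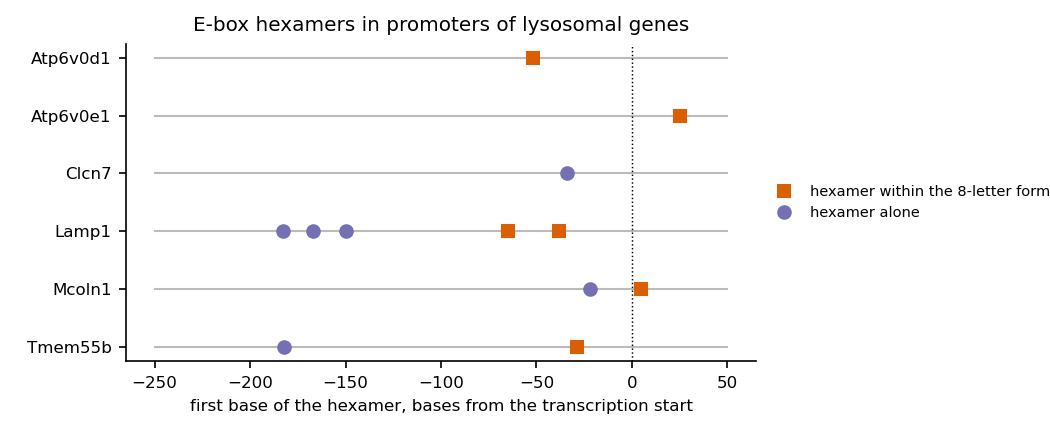
Positions of E-box hexamers in the 6 member promoters that hold one, in bases from the transcription start (dotted line). Squares mark hexamers within the 8-letter form and circles the hexamer alone. Lamp1 holds 5 hexamers, and Atp6v0e1 and Mcoln1 hold an 8-letter form just after the start.

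Of 25 further lysosomal membrane proteins listed, 24 were matched on the array and 21 were detected on all arrays. Lamp3, a relative of Lamp1 known from dendritic cells, Mfsd8, a lysosomal channel protein, and Abcb9, a peptide transporter of the lysosome, were detected on no array. Among those detected were the tetraspanin Cd63 at 4.44 ± 0.11, the proton channel Tmem175 at -2.29 ± 0.06 and the calcium channel Tpcn1 at -3.85 ± 0.30. On replicate 4, 17 of these 21 genes were above their own means (median deviation 0.07), against 51.9% of all detected genes. The counts on replicates 1 to 3 were 6, 11 and 7. They were not taken again with spike-in scaling, under which the median of all detected genes on replicate 4 was -0.58. None of the genes in the 3 lists passed the variance test in limma.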

How the data were processed

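Each deposited file holds the scanner output of 1 array. Per the labels and headers it was made with Agilent Feature Extraction 11.0.1.1. The deposited values used were spot intensity in fluorescence units, namely the processed signal, from which the software had already taken the background, and the mean and background signals. The authors deposited them without scaling between arrays, per the file headers. All 4 arrays lay on 1 slide in 1 scan, so no batch could be tested, and the number of arrays limits the precision. Per the labels, 100 ng of RNA was labelled, and each array holds 62976 spots.

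Non-uniform spots and population outliers were dropped by the software's flags. Spots of a probe were averaged on the log2 scale, after which the 75th percentile over non-control spots was subtracted. The brightest detected probe stands for a gene. Members kept their deposited gene names. For comparison with all genes, symbols were assigned over all 45598 non-control probes, members included. They came from accessions matched to RefSeq (22462 probes), from symbols (3708) or from older symbols (347). Placeholder symbols were left out. The variance test used R 4.3.3 and limma 3.58.1, and its script was first tested on simulated data. The rest was computed in Python 3.11.15.

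The members and lists were chosen with earlier results of these data known. Every member is named in the text, with full values where paralogues or probes differ in detection. Of other lists, the members not detected (where 6 or fewer) or the first 4 are named, and further genes were chosen after their values were seen. Alternatives were another detection flag, 2 arrays, a call from every probe of the gene, outlier spots retained, quantile normalization, normexp (offset 50), other scales, other priors, no filter on dim probes, a threshold of 0.01, means over probes and each replicate left out.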

Additional observations from a re-analysis of the deposited data

Results flagged for a closer look

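Atp6v0d1, the widely used subunit d of V0, lay at 2.25 on replicate 4, against 2.04 to 2.06 on the other arrays. The gap between replicate 4 and its nearest neighbour was 0.907 of the whole range, over Dixon's critical value for 4 samples. Of 44 results examined, it was the only one to stand apart in this way, where chance gives about 1 in 20, and 5.11% of all detected genes did so. It also stood apart with quantile normalization (0.868) and with the median of detected probes as scale (0.967), and did not with normexp (0.804) or spike-in scaling (0.231). Atp6v0e2 stood apart only with quantile normalization (0.890) and Lamp1 only with the median scale (0.843).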

How the results depend on the processing

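No paired analysis was possible because only 1 group of samples exists here, and a slide or scan block was not run because all arrays share both. Of 41 genes, 36 were detected with the positive and significant flag and 36 with detection on at least 2 arrays, in each case by gaining Atp6v1b1, and 35 with flagged spots kept. With every probe of a gene required the count was 33, without Atp6v0a1 and Atp6v0a2. Leaving out a replicate gave 35 to 36 genes and 42 to 43 probes, and Atp6v1b1 was gained without replicate 4. The variance test called 0 member probes under every alternative run, including 0 to 0 with a replicate left out, while its count over all probes moved between 0 and 1121. On simulated data it called 0.5% of 200 probes given 4 times the SD of the others, and 65% at 8 times. With so little power, 0 calls do not show that the members did not vary. The smallest adjusted p of a member lay between 0.051, with no filter on dim probes, and 0.93, with no trend. The median SD of the detected genes was 0.090 to 0.109 with a replicate left out and 0.47 with spike-in scaling. The range over arrays of the median deviation, 0.092, was 0.063 to 0.121 with a replicate left out and 0.95 with spike-in scaling. Spike-in scaling shifts all genes alike, with medians over all detected genes of 0.39, 0.40, -0.21 and -0.58 on replicates 1 to 4. Under it 14 of the 35 genes had the same highest array as before, against 31 with normexp, 32 with quantile normalization and 34 with the median of detected probes as scale.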

Other observations

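Markers of kidney intercalated cells, neurons, spermatids and melanocytes were mostly not detected. Kidney, brain and testis are named above for pump paralogues not detected here, and melanocytes are not. Any link between these markers and the paralogue calls was not tested. None of 6 kidney intercalated cell markers was detected on all arrays, Foxi1, Slc4a1, Slc26a4, Aqp6 and Slc4a9 on no array, and Atp6v1b1, which is both a marker and a member, on 3. None of the 4 neuronal markers Snap25, Syt1, Rbfox3 and Gad1 was detected on any array. Of 4 spermatid markers Prm1 was detected (-4.90 ± 0.14), and Tnp1, Tnp2 and Acrv1 were not. Of 3 melanocyte markers matched, Mlana was detected (-3.64 ± 0.28), and Tyr and Dct were not. Prm1 and Mlana were dim, and on replicate 4 their signals lay under the brightest negative control.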
